A study of Saccharomyces cerevisiae with 6 samples.

Results

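The first 1698 nt of the mature 25S rRNA sequence were examined as a stretch of template for RNA polymerase I (Pol I) in budding yeast. The stretch covers positions 3252 to 4949 of the 35S gene, counted from the transcription start site as position 1. It is set by position alone, as the upstream of 2 equal parts of the 3396 nt of mature 25S. It holds 1698 of the 6739 positions between the start site and the first termination site, T1, and 17 of the 68 windows of 100 nt laid over the gene (the last window of the stretch has 98 nt). On chromosome XII of the R64 assembly the stretch lies at 462621 to 464318, inside RDN25-2 and the precursor gene RDN37-2. It is mature rRNA sequence throughout and holds no spacer.

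NET-seq (native elongating transcript sequencing) libraries came from 3 samples of the *rpa12Δ* strain and 3 samples of the WT strain. The WT strain carries an HA tag on Rpa135, the second-largest Pol I subunit, through which Pol I elongation complexes were precipitated. The *rpa12Δ* strain derives from it by full deletion of *RPA12* and keeps the HA tag. Both were grown in YEPD, a rich glucose medium. The comparison asks how Pol I is distributed along the template when its A12.2 subunit is missing. The study describes the 3 replicates of each strain as biological.

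Pol I transcribes the 35S precursor, from which the mature rRNAs other than 5S are cut. The 25S rRNA is the large RNA of the 60S ribosomal subunit and carries the peptidyl transferase centre in its downstream part, beyond the stretch described here. A12.2, the product of *RPA12*, is the Pol I subunit required for intrinsic cleavage of the nascent RNA, by which a backtracked polymerase can restart. A NET-seq read ends at the last nucleotide added by a polymerase, so a position with many read ends is one at which polymerases were often captured.

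Between 3944710 and 4312851 read ends per *rpa12Δ* library and between 1404091 and 2214993 per WT library fell on the 35S gene. Of these, 763546 to 875062 in *rpa12Δ* and 293246 to 459664 in WT lay in the 25S stretch. Occupancy is given in RPM, for which a position's read ends were scaled to a total of 1000000 between position 1 and T1 in each library. A single read end equals 0.232 to 0.254 RPM in *rpa12Δ* and 0.451 to 0.712 RPM in WT, and 3 read ends, taken as the floor, equal 0.696 to 0.761 RPM in *rpa12Δ* and 1.35 to 2.14 RPM in WT. The reads carry no molecular identifiers, so such floors cover counting error only. All reads of the stretch had mapping quality 0, which reads that match more than 1 copy of the rDNA receive, and the values therefore describe the repeats together. *RPA12* itself had 0, 0 and 1 reads in *rpa12Δ* libraries 1 to 3, against 8, 9 and 4 in WT.

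Summed over the stretch, occupancy was similar in both strains. It came to 202896, 193562 and 213322 RPM in *rpa12Δ* replicates 1 to 3, against 207524, 221247 and 208851 RPM in WT. The groups overlapped, with *rpa12Δ* replicate 3 above 2 of the WT libraries. The means were 203260 ± 9885 RPM in *rpa12Δ* and 212541 ± 7569 RPM in WT (SD, n = 3 each). The log2 difference, *rpa12Δ* minus WT, was -0.06 with an SE of 0.08 (limma over 8 regions of the gene, adjusted p = 0.401; exact two-sided permutation test, p = 0.3, where 3 against 3 cannot give less than 0.1). The sum depends on the denominator. When positions within 5 nt of the mature 3′ ends were taken out of it, the difference was -0.23 (adjusted p = 0.00881), and with all reads of the library as denominator it was -0.21 (adjusted p = 0.00831).

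Ratios within a library are free of the 35S denominator. They were used to set the stretch against 18S, which does not adjoin it, and against the downstream part of 25S, which does. Set against 18S, the stretch had 0.810, 0.720 and 0.762 times the 18S occupancy in *rpa12Δ*, against 1.006, 1.009 and 0.976 times in WT. Every *rpa12Δ* library lay below every WT library, and the log2 difference was -0.39 with an SE of 0.05 (limma over 4 within-library measures, adjusted p = 0.00103). Set against the downstream part of 25S, the stretch had 0.597, 0.617 and 0.735 times its occupancy in *rpa12Δ*, against 0.516, 0.615 and 0.567 times in WT. Those groups overlapped, and the log2 difference of 0.20 with an SE of 0.10 missed the threshold (adjusted p = 0.106). The deposited alignments spread reads of positions 5875 to 6647, near the 25S 3′ end, over an additional, partial copy, so that the copy used here holds only 33.9 to 34.7% of the reads there. With the downstream part taken up to that point only, the log2 difference of the last ratio was 0.13 and passed the threshold (limma, adjusted p = 0.00853). That cut also leaves out the 3′ end of 25S. With the reads of all places of the repeat added together, the difference was 0.21 and missed the threshold (limma, adjusted p = 0.128). With both annotated copies it was 0.20 and missed it too (limma, adjusted p = 0.103).

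Within the stretch, the upstream part held a larger share of the occupancy in *rpa12Δ* than in WT. The first 849 nt (3252 to 4100) held 0.849, 0.883 and 0.872 times the occupancy of the second 849 nt (4101 to 4949) in *rpa12Δ*, against 0.748, 0.759 and 0.756 times in WT. The second 849 nt held more than the first in all 6 libraries, and the groups did not overlap. The log2 difference was 0.20 with an SE of 0.03 (limma, adjusted p = 0.00103; exact two-sided permutation test, p = 0.1, the smallest this design can give).

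Windows of 100 nt showed where the strains parted. Mean occupancy per window ranged from 9129 to 17626 RPM in *rpa12Δ* and from 7312 to 18636 RPM in WT. Both strains had their lowest window at 3252 to 3351, at the start of 25S. The highest lay at 4152 to 4251 in *rpa12Δ* and at 4452 to 4551 in WT. Of the 17 windows, 2 were called higher and 3 lower in *rpa12Δ* at an adjusted p under 0.05, in a limma fit over all 68 windows. Over the whole gene 61.8% of windows were called, 42.6% higher and 19.1% lower, against 11.8% higher and 17.6% lower here.

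The window raised most was 3852 to 3951. It held 10759, 10891 and 11736 RPM in *rpa12Δ*, against 8497, 8640 and 8002 RPM in WT, a log2 difference of 0.41 (SE 0.07, adjusted p = 0.000482). The first window of 25S, 3252 to 3351, was also higher, with 8270.4, 9081 and 10034 RPM in *rpa12Δ* against 6872, 7787 and 7278 RPM in WT (log2 difference 0.32, SE 0.08, adjusted p = 0.00772). All *rpa12Δ* libraries exceeded all WT libraries in both windows. The window next to it, 3352 to 3451, went the other way, with a log2 difference of -0.24 (SE 0.08, adjusted p = 0.0183).

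The window lowered most was 4752 to 4851. It held 12257, 9922 and 11965 RPM in *rpa12Δ*, against 15504, 16511 and 15869 RPM in WT, and the log2 difference was -0.49 (SE 0.09, adjusted p = 0.000899). In the window 4252 to 4351 the values were 13727, 9966 and 11731 RPM in *rpa12Δ*, against 14731, 16561 and 15980.4 RPM in WT (log2 difference -0.43, SE 0.11, adjusted p = 0.00732). The strains overlapped in neither window, and *rpa12Δ* replicate 1 lay nearest to WT in both. The other 12 windows had log2 differences between -0.21 and 0.11. With the mature 3′ ends out of the denominator, 1 window was called higher and 9 lower, and with the stretch itself as denominator 5 were called higher and 3 lower.

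**Figure D1:**
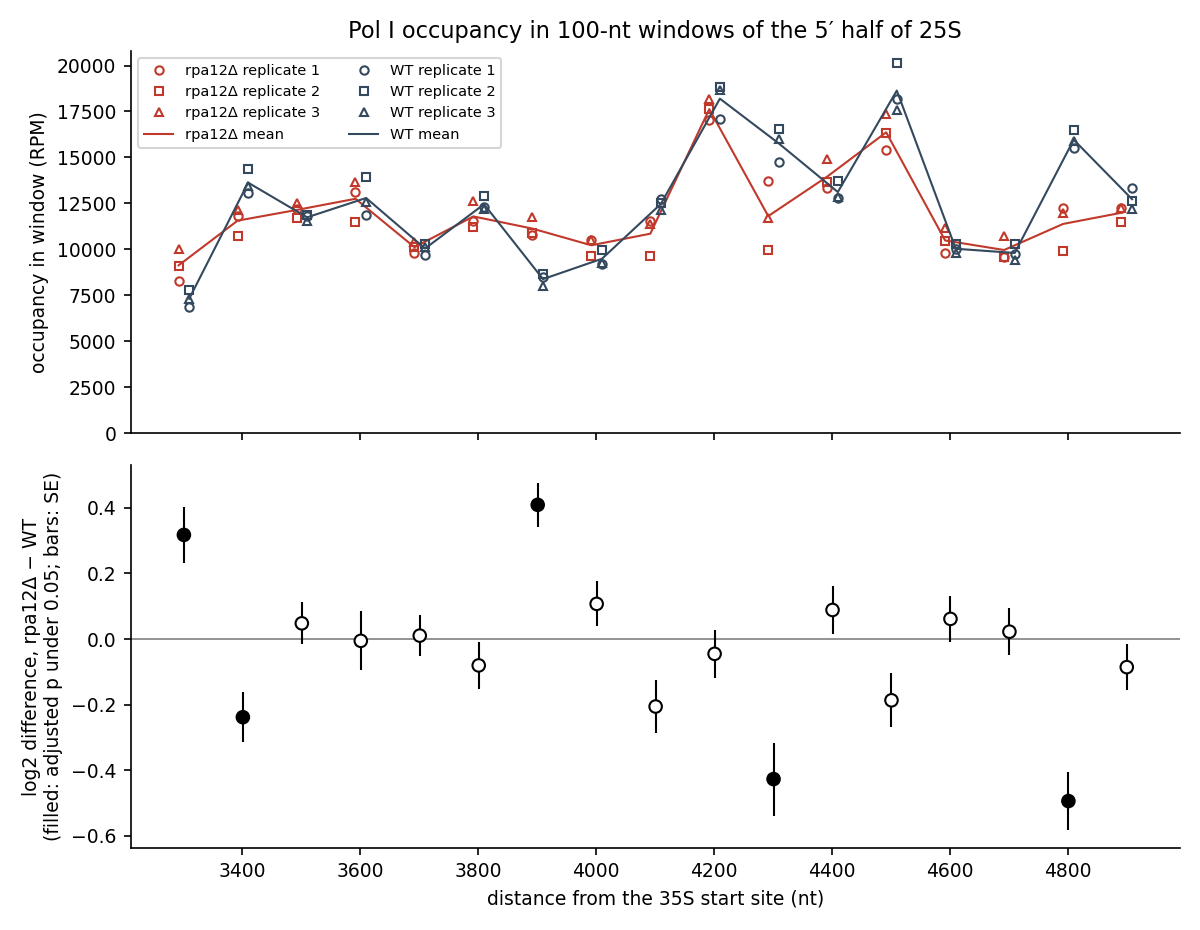
Top, occupancy (RPM) in each window of the stretch by library, against distance from the 35S start site, with *rpa12Δ* in red and WT in dark blue and lines through the strain means. Bottom, log2 difference (*rpa12Δ* minus WT) with its SE, filled where the adjusted p was under 0.05: 2 windows lie above 0 and 3 below it.

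Single positions were called in both directions. Of the 1698 positions, 1676 had a mean of at least 10 RPM over the 6 libraries and were tested, in a limma fit over all 6357 such positions of the gene. In *rpa12Δ*, 416 of them (24.8%) were higher, 278 (16.6%) were lower and 982 were not called. The share over the whole gene was 48.9%, of which 37.9% were higher and 11.0% lower, so the stretch had fewer higher and more lower positions than the gene. In 18S, 797 of 1788 tested positions were higher and 50 lower, and in the downstream part of 25S 294 of 1686 were higher and 334 lower. The balance of directions moves with the denominator. Without the mature 3′ ends it was 272 higher and 444 lower, with all library reads 227 higher and 403 lower, and with the stretch itself 510 higher and 244 lower. The median log2 difference over the gene moved too, from 0.25 to 0.096, 0.036 and 0.35 in that order. Calls over the whole gene were not counted for these denominators. The methods' t-test called 51 positions higher and 60 lower after Benjamini-Hochberg adjustment, and 327 higher and 257 lower without adjustment.

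Called positions of both directions lay close together. Every one of the 17 windows held positions called in each direction, from 10 to 54 higher and from 2 to 40 lower. Among the 12 windows that were not called as a whole, 11 held at least 5 higher and at least 5 lower positions. These counts were not taken over the other windows of the gene, so they do not set the stretch apart. The median log2 difference over the tested positions of the stretch was 0.08, with extremes of -2.41 and 3.18, against a median of 0.25 over the gene. More than a 2-fold change was measured at 63 of the higher and 51 of the lower positions, and the share over the whole gene was not taken. In the first 849 nt, 248 of 830 tested positions were higher and 103 lower. In the second 849 nt, 168 of 846 were higher and 175 lower.

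**Figure D2:**
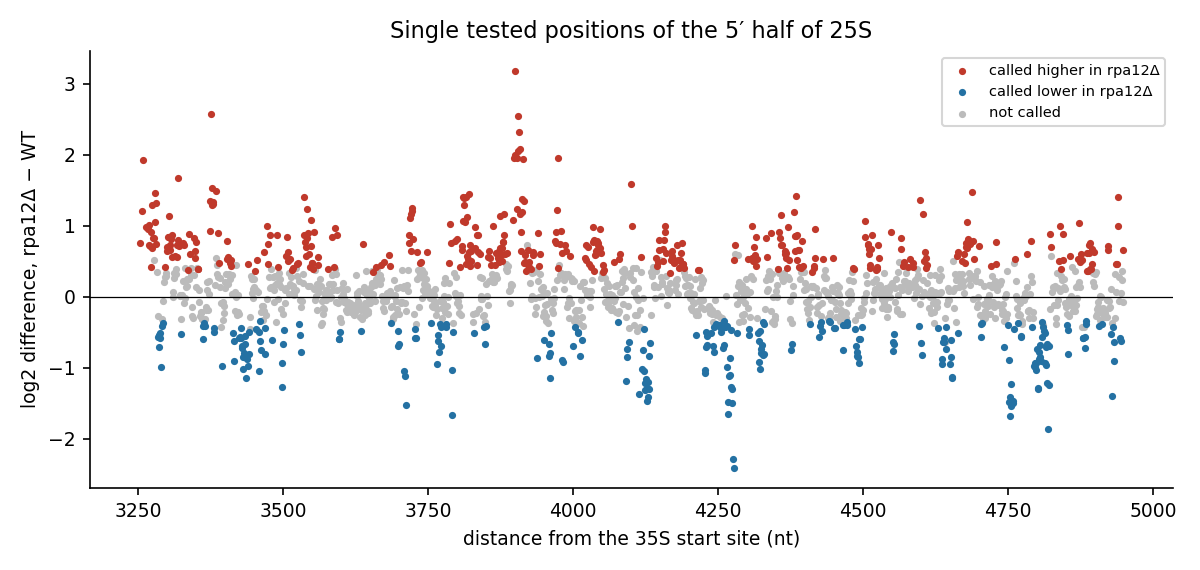
Log2 difference in occupancy (*rpa12Δ* minus WT) at each tested position, against distance from the 35S start site, with called positions in red (416 higher) and blue (278 lower) and the other 982 in grey. Higher and lower positions alternate along the whole stretch, singly and in groups.

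Within the stretch, direction followed the level of occupancy. When tested positions were ranked by their mean over all 6 libraries and split into 4 sets of 419, the least occupied set (10.1 to 52.8 RPM) had 120 higher and 28 lower positions. The next set (52.8 to 87.6 RPM) had 107 higher and 43 lower, and the one above it (87.9 to 148 RPM) had 103 higher and 67 lower. The most occupied set (148 to 1269 RPM) had 86 higher and 140 lower. Median log2 differences of these sets, from least to most occupied, were 0.23, 0.15, 0.05 and -0.19. A denominator shifts all sets alike and leaves their order as it is. The same split was not made over the rest of the gene, so the trend may not be particular to the stretch.

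The tallest positions held less of the stretch in *rpa12Δ*. The 42 positions (2.5%) of highest mean over all libraries took 14.0, 11.5 and 11.9% of the stretch's read ends in *rpa12Δ*, against 16.4, 15.9 and 15.7% in WT. The groups did not overlap, with *rpa12Δ* replicate 1 nearest to WT, and the log2 difference was -0.37 with an SE of 0.08 (limma over 4 within-library measures, adjusted p = 0.00596). Positions over 1000 RPM numbered 4, 2 and 2 in *rpa12Δ* and 10, 11 and 10 in WT. The median position differed little, at 84.6, 85.2 and 92.5 RPM in *rpa12Δ* and 80.6, 88.2 and 81.2 RPM in WT.

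**Figure D3:**
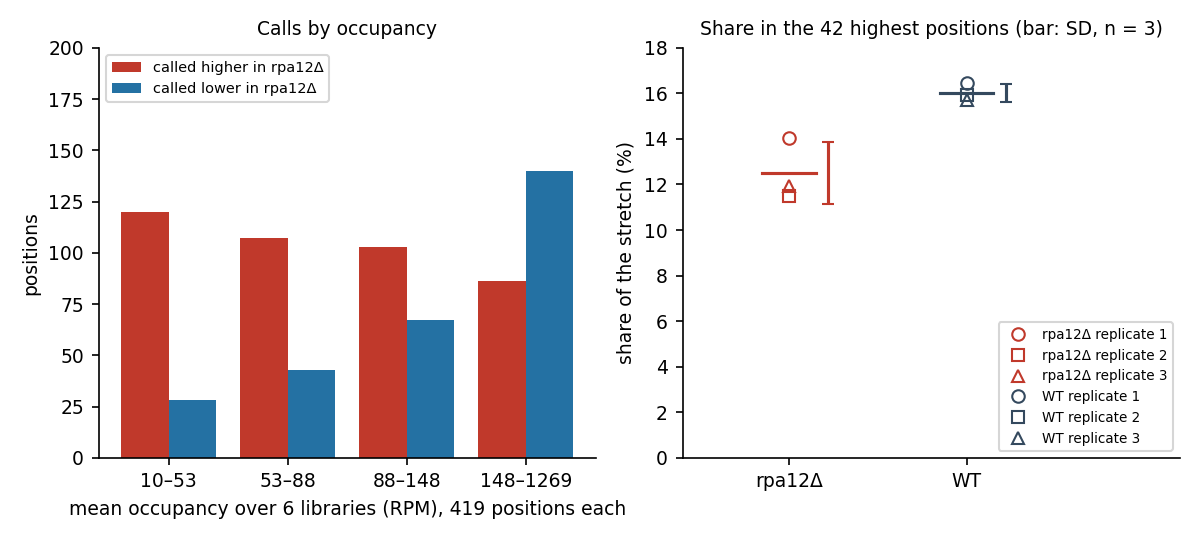
Left, number of positions called higher (red) and lower (blue) in *rpa12Δ* in 4 sets of 419 tested positions, ordered by mean occupancy in RPM. Right, percent of the stretch's read ends at its 42 highest positions in each library, with the strain mean as a line and the SD (n = 3) as a bar: all 3 *rpa12Δ* libraries lie below all 3 WT libraries.

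Single positions were then named by rule: the 5 highest of each strain, the 5 largest rises and 5 largest falls among called positions of 100 RPM or more in at least 1 strain, and both ends of the stretch. Of the 830 positions that reached 100 RPM in a strain, 202 were called higher and 212 lower with the same direction in all 3 pairs of equal replicate number. The matching share over the whole gene was not taken. The 5 highest positions of the strains had 3 in common, 3770, 4489 and 4878.

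Position 3770 (nucleotide 519 of mature 25S, chromosome XII 463800) was the highest in *rpa12Δ* by mean. It had 1205, 1002 and 1402 RPM in *rpa12Δ*, against 1268, 1221 and 1236 RPM in WT. The groups overlapped, and the log2 difference of -0.06 was not called (SE 0.15, adjusted p = 0.770). Position 4489 (nucleotide 1238) had 1070.1, 772 and 878 RPM in *rpa12Δ*, against 1512, 1782 and 1507 RPM in WT. All 3 *rpa12Δ* libraries were below WT there, with a log2 difference of -0.83 (SE 0.15, adjusted p = 0.000174).

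Position 4878 (nucleotide 1627) varied most among the tall positions, with 1977, 911 and 569.7 RPM in *rpa12Δ*, against 1839, 1224 and 1090.4 RPM in WT. Replicate 1 was the highest of its strain on both sides, and the groups overlapped. The log2 difference of -0.42 was not called (SE 0.29, adjusted p = 0.242), and single libraries decided its size. It was -0.90 and called without *rpa12Δ* replicate 1 (adjusted p = 0.00038), and it was not called at -0.20 without WT replicate 1 (adjusted p = 0.694) or at -0.0074 without *rpa12Δ* replicate 3 (adjusted p = 0.984).

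The remaining tall positions of *rpa12Δ* were higher than in WT. Position 3536 (nucleotide 285, chromosome XII 464034) had 904, 1091 and 1111 RPM in *rpa12Δ*, against 591, 508 and 602 RPM in WT. The log2 difference was 0.87 (SE 0.14, limma, adjusted p = 4.63e-05), and -0.33 when distinct read intervals were counted once. That count saturates at tall positions: 53 to 56 distinct intervals ended at 3536 in *rpa12Δ* and 48 to 52 in WT. Position 3452 (nucleotide 201) had 849, 887 and 917 RPM in *rpa12Δ*, against 649, 713 and 697 RPM in WT, and no libraries overlapped. Its log2 difference of 0.36 (SE 0.13, adjusted p = 0.0298) lost its call without any 1 of 5 libraries (all but *rpa12Δ* replicate 1) and was -0.31 with distinct intervals.

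The remaining tall positions of WT were lower in *rpa12Δ*. Position 4273 (nucleotide 1022) had 919, 541 and 601 RPM in *rpa12Δ*, against 1522, 1659 and 1639 RPM in WT (log2 difference -1.26, SE 0.17, adjusted p = 4.91e-06). Position 4930 (nucleotide 1679) had 591, 465 and 556 RPM in *rpa12Δ*, against 1515, 1305 and 1414 RPM in WT (log2 difference -1.40, SE 0.14, adjusted p = 1.36e-07). At both, every *rpa12Δ* library was far below every WT library.

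Among called positions of 100 RPM or more in at least 1 strain, the largest rises lay at 3908, 3904, 3974, 3821 and 4384. Position 3908 (nucleotide 657, chromosome XII 463662) had 94.8, 123 and 127 RPM in *rpa12Δ*, against 23.0, 26.0 and 29.9 RPM in WT, a log2 difference of 2.08 (SE 0.17, adjusted p = 4.31e-09). Its neighbour 3904 (nucleotide 653, chromosome XII 463666) had 244, 271 and 244 RPM in *rpa12Δ*, against 71.3, 56.8 and 65.5 RPM in WT, a log2 difference of 1.96 (SE 0.14, adjusted p = 9.07e-10). Each *rpa12Δ* library thus had over 3 times the highest WT value at either position.

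Position 3974 (nucleotide 723, chromosome XII 463596) was the most occupied of these 5 in *rpa12Δ*. It had 370.1, 361 and 416 RPM in *rpa12Δ*, against 99.8, 93.5 and 100.4 RPM in WT (log2 difference 1.95, SE 0.13, adjusted p = 4.12e-10). Both strains were tight there. Positions 3821 (nucleotide 570) and 4384 (nucleotide 1133) averaged 325 ± 84.2 and 105 ± 16.4 RPM in *rpa12Δ*, against 116 ± 9.50 and 38.6 ± 5.05 RPM in WT (SD, n = 3 each), with log2 differences of 1.45 and 1.41. With distinct read intervals counted once, 3974 and 3821 had log2 differences of 0.036 and 0.0026 and were not called (limma, adjusted p = 0.655 and 0.977). Positions 3904, 3908 and 4384 were still called at 0.32, 0.58 and 0.43. At 3974, 51 to 53 distinct intervals came from 1424 to 1663 read ends in *rpa12Δ*. In WT, 36 to 40 came from 141 to 221 read ends. This count saturates at tall positions, sooner in the deeper *rpa12Δ* libraries, and so understates such rises. Larger rises were measured at less occupied positions, such as 3376 (99.3 ± 9.88 RPM in *rpa12Δ*, 15.8 ± 0.767 RPM in WT, log2 difference 2.58) and 3900 (38.9 ± 2.83 RPM in *rpa12Δ*, 3.44 ± 0.932 RPM in WT, log2 difference 3.18), both chosen after their values were seen (SD, n = 3 each).

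Under the same limit, the largest falls lay at 4277, 4276, 4819, 4753 and 4268. Position 4277 (nucleotide 1026, chromosome XII 463293) had 156, 108 and 97.2 RPM in *rpa12Δ*, against 607, 618 and 667 RPM in WT, a log2 difference of -2.41 (SE 0.16, adjusted p = 2.62e-10). Position 4276 (nucleotide 1025) had 186, 148 and 132 RPM in *rpa12Δ*, against 716, 719 and 831 RPM in WT, a log2 difference of -2.29 (SE 0.15, adjusted p = 1.89e-10). These 2 neighbours were 5.24 and 4.86 times lower in *rpa12Δ* by the means, and replicate 1 had the highest *rpa12Δ* value at both.

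Position 4819 (nucleotide 1568) had 86.3, 57.0 and 48.0 RPM in *rpa12Δ*, against 249, 201 and 236 RPM in WT, a log2 difference of -1.86. Position 4753 (nucleotide 1502) had 195, 109 and 122 RPM in *rpa12Δ*, against 404, 444 and 477 RPM in WT, a log2 difference of -1.67. At 4268 (nucleotide 1017) the values were 82.5, 53.2 and 63.5 RPM in *rpa12Δ*, against 215, 212 and 193 RPM in WT, a log2 difference of -1.64. No library of one strain overlapped the other at these 3 sites, all called in limma (adjusted p between 5.17e-08 and 1.63e-07). Among positions that reached 100 RPM in a strain, the 5 largest falls thus all lay in the second 849 nt, and 4 of the 5 largest rises lay in the first.

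Each named position that was tested collected reads with many different starting points. At 3252, which was not tested, each WT library had 6 distinct intervals from 6 to 8 read ends. At 4277, 41 to 50 distinct read intervals ended in the *rpa12Δ* libraries and 49 to 53 in WT, and the commonest of them held 9.51 to 12.9% of the ends in *rpa12Δ* and 8.64 to 11.2% in WT. At 3904 there were 49 to 51 in *rpa12Δ* and 26 to 35 in WT, with the commonest at 14.9 to 16.8% in *rpa12Δ* and 13.3 to 19.8% in WT. Over all named positions the commonest interval held at most 25% of the ends in a library. The reads have no molecular identifiers, and the part of PCR copies in these values was not tested.

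**Figure D4:**
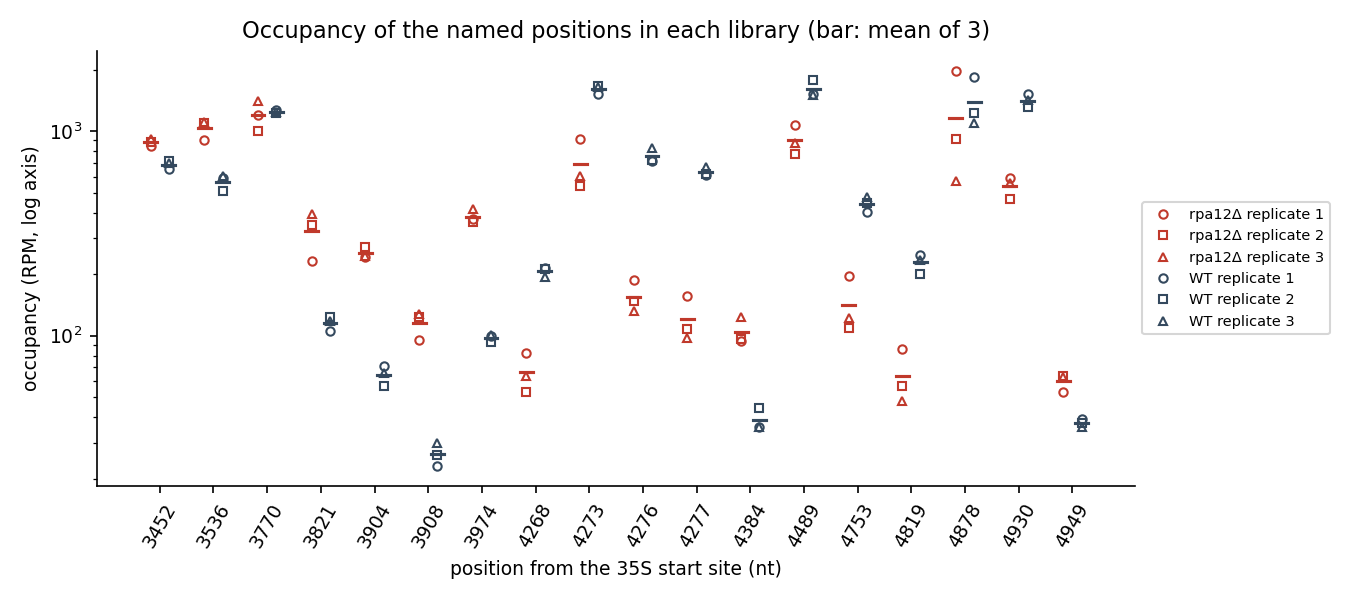
Occupancy (RPM, log axis) of the 18 named positions that were tested, by library, with *rpa12Δ* left of WT at each position and a bar at the mean of 3. At 16 positions the libraries of the strains do not overlap, the exceptions being 3770 and 4878. Many of these positions were named as the largest called rises or falls, a choice that favours such separation. The share without overlap among all tested positions was not taken.

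Called positions were grouped into runs of neighbours with the same call. The 416 higher positions formed 166 runs, of which 92 were single positions and 41 had at least 3 nt and held 258 positions. The 278 lower positions formed 105 runs, of which 52 were single and 30 had at least 3 nt and held 180 positions. Since the calls defined the runs, their sums are descriptions and were not tested. Runs over the whole gene were not counted, so these numbers do not set the stretch apart.

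The longest higher run spanned 18 nt, 3808 to 3825. It held 1624, 1758 and 1934 RPM in *rpa12Δ*, against 869, 1041 and 921 RPM in WT. Another covered 17 nt at 3903 to 3919, around the sharp rises at 3904 and 3908, with 1315, 1543 and 1629 RPM in *rpa12Δ* against 679, 723 and 707 RPM in WT. Every *rpa12Δ* library was above every WT library in both. Runs at 3870 to 3883 (2512 ± 387 RPM in *rpa12Δ*, 1528 ± 67.3 RPM in WT) and 3903 to 3919 both lay in the window raised most. A run of 15 nt at 4034 to 4048 held 2165 ± 315 RPM in *rpa12Δ* and 1301 ± 62.2 RPM in WT (SD, n = 3 each).

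The longest lower run spanned 16 nt, 4795 to 4810, with 2347, 1653 and 1912 RPM in *rpa12Δ* against 3529.6, 3666 and 3449.9 RPM in WT. It shared the window lowered most with the run 4812 to 4821 (1373 ± 240.3 RPM in *rpa12Δ*, 2541 ± 90.8 RPM in WT) and with most of 4750 to 4760 (1199 ± 329 RPM in *rpa12Δ*, 3016 ± 178 RPM in WT). The run 4265 to 4277, 13 nt that include 4268, 4273, 4276 and 4277, held 2203, 1540.0 and 1601 RPM in *rpa12Δ*, against 4463, 4657 and 4772 RPM in WT. Of the runs of at least 4 nt, it had the widest gap in RPM between strain means. It ended abruptly, as the plot of the runs shows, and both strains were low just beyond it.

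In the run 4122 to 4133 the *rpa12Δ* libraries themselves differed widely, with 2611.5, 1188 and 1788 RPM, against 3977, 3583 and 3635 RPM in WT. Further upstream, 3425 to 3439 held 1879 ± 223 RPM in *rpa12Δ* and 3159 ± 79.3 RPM in WT (SD, n = 3 each). That run lay in the window 3352 to 3451, beside the higher first window, which held the higher runs 3269 to 3277 and 3300 to 3309 and the lower run 3285 to 3290.

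**Figure D5:**
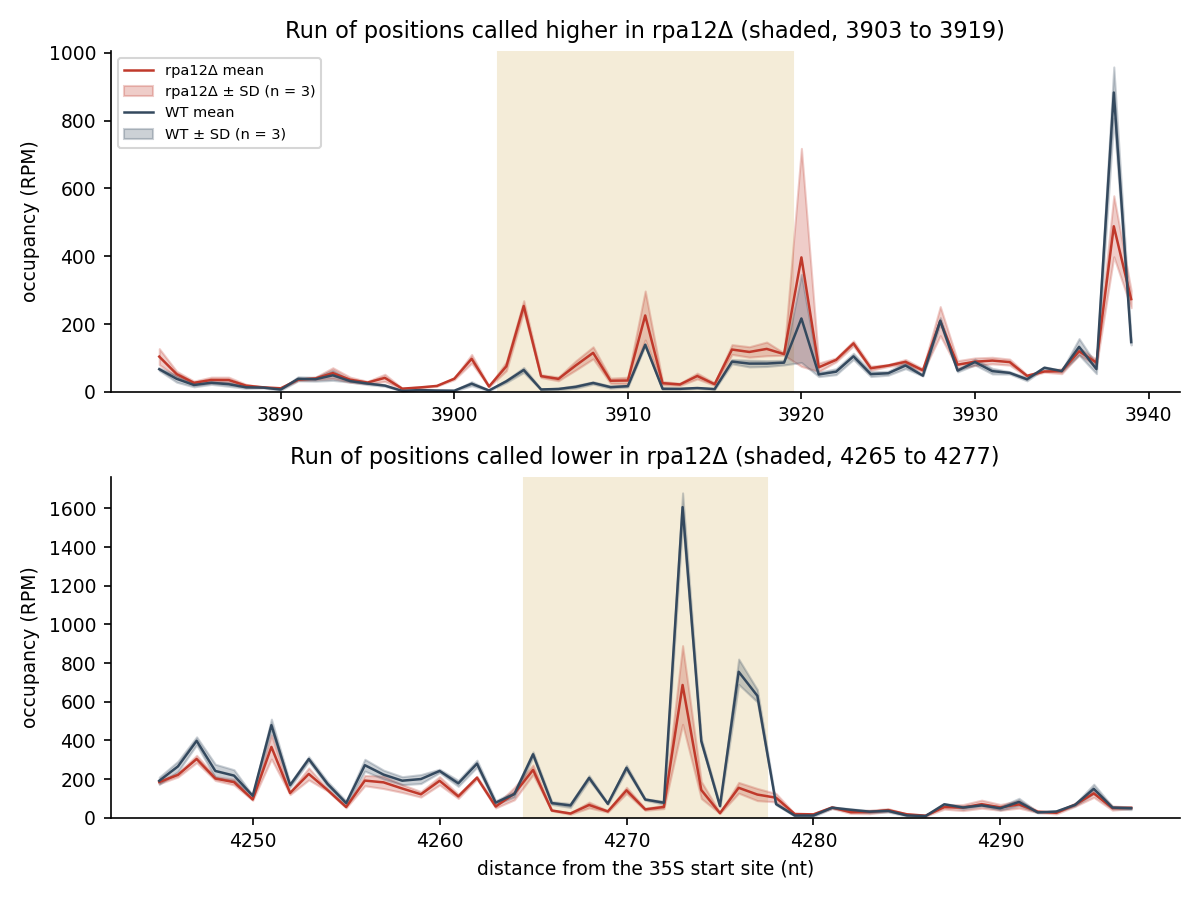
Mean occupancy (RPM, line) and SD (band, n = 3) in *rpa12Δ* (red) and WT (dark blue) against distance from the 35S start site, around a run of higher positions (top, 3903 to 3919) and a run of lower positions (bottom, 4265 to 4277), both shaded. In the upper panel the broad band at 3920 comes from replicate 1 of each strain, and in the lower panel the WT peaks at 4273, 4276 and 4277 stand above *rpa12Δ*.

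At both ends of the stretch, every *rpa12Δ* library lay above every WT library. The sums over 10 nt given here were not tested. Position 3252, the first nucleotide of 25S, had 12.3, 13.4 and 13.2 RPM in *rpa12Δ*, against 2.71, 3.55 and 5.70 RPM in WT, and was too low on average to be tested. The first 10 nt of 25S held 142, 147 and 139 RPM in *rpa12Δ*, against 44.7, 61.0 and 56.3 RPM in WT. Just outside, the last 10 nt of the spacer ITS2 held 266, 324 and 301 RPM in *rpa12Δ*, against 81.3, 114 and 106 RPM in WT, so that *rpa12Δ* was the higher strain on both sides of the boundary. At the other edge, position 4949 had 52.9, 63.6 and 63.0 RPM in *rpa12Δ*, against 39.3, 37.3 and 35.6 RPM in WT (log2 difference 0.66, SE 0.16, adjusted p = 0.00191). The 10 nt up to it held 961 to 1054 RPM in *rpa12Δ* and 844 to 897 RPM in WT, and the 10 nt after it 563 to 609 RPM in *rpa12Δ* and 478 to 555 RPM in WT.

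The 22 positions that were not tested had means of at most 9.93 RPM. Of these, 12 lay in the first 20 nt of 25S. Each position of the stretch had at least 1 read end in every *rpa12Δ* library, and 1 position had none in WT replicate 2 and 1 in WT replicate 3.

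Replicates were less alike in *rpa12Δ* than in WT. Over the 1698 positions, Spearman's rho was 0.936 to 0.967 between *rpa12Δ* libraries and 0.980 to 0.982 between WT libraries, where positions share a library and are not independent. Between strains, rho against the 3 WT libraries was 0.916 to 0.923 for *rpa12Δ* replicate 1, 0.853 to 0.860 for replicate 2 and 0.877 to 0.888 for replicate 3. The coefficient of variation had a median of 12.4% in *rpa12Δ* over 739 positions of at least 100 RPM and of 8.39% in WT over 705. It was highest at 3920 in both strains, a site chosen after its values were seen, with 766, 244 and 180 RPM in *rpa12Δ* and 366, 134 and 150 RPM in WT. Replicate 1 was the highest of its strain there, as at 4878.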

How the data were processed

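Samples were grouped by the strain in their labels, 3 libraries each. The authors deposited 1 line per aligned read with its start, end, strand and a score from the aligner, its mapping quality. The submitters' processing notes name bcl2fastq 2.18.0.012, Trim Galore 0.4.1, BWA 0.6 and SAMtools 1.3.1. The genome build is not given in the sources used here, and RefSeq gene coordinates of R64, which the mature rRNA ends fit, were used. Read 5′ ends on the plus strand of chromosome XII, which are 3′ ends of nascent RNA transcribed from the minus strand, were counted at 460831 to 467569, 1 of the annotated gene copies. The other copy held 49.9 to 50.1% of the stretch's ends.

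Python 3.11.15, R 4.3.3 and limma 3.58.1 were used. Occupancy was tested as log2(RPM + 1), so differences of low positions are understated, over every position averaging 10 RPM or more (with a variance trend), all 68 windows (with a trend) or 8 regions (without). P-values were adjusted by Benjamini-Hochberg over the whole fit, with a threshold of 0.05, and the fits were tested on simulated data. The ratio to 18S and the share of the highest positions were added after the data were seen. Members, tests and naming rules were chosen with earlier results of these data known. Named positions had to change the same way in all 3 pairs of equal replicate number if named for their change. The positions so named do not overlap between strains, so that any other pairing of libraries would keep them. Measures by template base were not run, because no genome sequence was used here. Alternatives changed the pseudocount (0.1 and 10 RPM), filter, variance trend, test, denominator, reads used, rDNA copies, depth, window layout and replicates.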

Additional observations from a re-analysis of the deposited data

Results flagged for a closer look

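Reads on the opposite strand of the stretch enter none of the comparisons above. They came to 155, 162 and 132 RPM in *rpa12Δ* (668, 641 and 528 read ends), against 102, 102 and 109.7 RPM in WT (227, 173 and 154 read ends), on the scale of the 35S sum. The mean was 149.8 ± 15.9 RPM in *rpa12Δ* and 105 ± 4.18 RPM in WT (SD, n = 3 each). This was picked out because every *rpa12Δ* library lay above every WT library, in data outside the main measurement. No test was run on it, and its source was not tested.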

How the results depend on the processing

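The ratio to 18S, the ratio of the first to the second 849 nt and the share of the 42 highest positions kept direction and call in all 13 alternatives run for each. Of 16 called named positions, 7 (3904, 4268, 4276, 4277, 4753, 4819 and 4930) kept both in all 22. The summed occupancy passed the threshold in 4 alternatives, with log2 differences of -0.23 without the mature 3′ ends, -0.21 with all library reads as denominator, -0.13 with distinct intervals and -0.22 without the 20 highest positions of the gene. The last also brought the ratio to the downstream part of 25S past it (0.12), as did ending that part before the partial additional copy (0.13, an alternative chosen after seeing the data). Adding the reads of all places of the repeat did not (0.21). Distinct intervals gave 155 higher and 644 lower positions and 15 lower windows, and turned 3452 (-0.31) and 3536 (-0.33). At most 57 distinct intervals ended at a named position, so this count saturates at tall positions. Without the mature 3′ ends there were 272 higher and 444 lower positions, with 1 higher and 9 lower windows. All library reads gave 227 higher positions, 1 higher window and 8 lower windows, and the stretch as denominator gave 5 higher windows and 0.0059 at 3770. The median of all positions of the gene moved from 0.25 by -0.15 (mature ends out of the denominator, or the 20 highest positions left out), -0.21 (all reads), 0.10 (the stretch) and -0.27 (distinct intervals). The t-test that allows unequal variances gave 51 higher and 60 lower positions after adjustment and 1 higher window with or without it. Windows of 50 nt gave 11 higher and 9 lower, and windows shifted by 50 nt gave 6 lower. The causes were not tested. Leaving out 1 library gave 2 to 5 lower windows (5 without *rpa12Δ* replicate 3, 2 without *rpa12Δ* replicate 2, WT replicate 2 or WT replicate 3) and -0.18 to 0.066 at 3770.

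With the replicate block, 400 positions were higher and 259 lower, 4 windows were lower in place of 3, and no ratio or regional sum changed its call. Over the tested positions of the gene, deviations of equal-numbered samples from their strain means had r = 0.09, -0.06 and -0.09 for numbers 1 to 3. Such values cannot tell whether the numbers mark pairs. At 3920 and 4878, replicate 1 was the highest of its strain on both sides. Measures by last, incoming and preceding base were planned and not run. Depth in WT, at 0.451 to 0.712 RPM per read end, limits what can be said of positions near the floor.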
